A study of Mus musculus with 6 samples.

Results

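The 9 Toll-like receptors (TLRs) *Tlr1*, *Tlr2*, *Tlr3*, *Tlr4*, *Tlr6*, *Tlr7*, *Tlr8*, *Tlr9* and *Tlr13* and their chaperone *Unc93b1* were taken by gene name from the 22248 genes of the RNAseq of resting bone-marrow-derived macrophages (BMDMs). All 10 members were listed, and all 10 had a mean FPKM (fragments mapped to a gene, divided by its transcript length and by the size of the library) of at least 1, the level above which 11687 genes were tested. The series comprised 3 control libraries from *Lyz2cre* mice, which carry Cre recombinase at the *Lyz2* locus, and 3 libraries that lack CITED2 in myeloid cells, from *Cited2 fl/fl*:*Lyz2cre* mice, which carry the same Cre allele and floxed *Cited2*. Cre from this locus acts in myeloid cells. All mice were on a C57BL/6 background with an age of 10 weeks in the labels. The marrow cells were grown in medium with macrophage colony-stimulating factor and were not stimulated, so no TLR ligand was added on purpose.

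TLRs are membrane receptors that recognize microbial products. TLR1, TLR2, TLR4 and TLR6 sense lipids and lipoproteins mainly at the cell surface, while TLR3, TLR7, TLR8, TLR9 and TLR13 sense nucleic acids in endosomes. UNC93B1 is a membrane protein of the endoplasmic reticulum that binds the nucleic-acid-sensing receptors and escorts them to endosomes, where proteases trim their outer part. Except for TLR3, which signals through the adaptor TRIF (*Ticam1*), these receptors signal through MYD88, and TLR4 uses both adaptors. TLR signaling in macrophages ends in NFkB and interferon regulatory factors and in cytokine and chemokine expression.

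CITED2 deficiency was accompanied by higher RNA of the 5 endosomal receptors and by lower RNA of the chaperone that carries them. All 5 endosomal TLRs rose, with *Tlr3* at 241% of its control mean, *Tlr9* at 156%, *Tlr13* at 139%, *Tlr7* at 112% and *Tlr8* at 112%. *Unc93b1* fell to 82.8%. At the cell surface *Tlr4* rose to 119%, *Tlr2* fell to 78.7% and *Tlr6* fell to 84.5%, while *Tlr1*, at 93.7%, did not pass the test. Levels were compared as log2(FPKM + 1) with limma at an adjusted p of 0.05, and 9 of the 10 members passed, 6 higher and 3 lower. Of all tested genes 51.3% passed, 16.7% as higher and 34.6% as lower. When the libraries were scaled so that the typical gene had the same level in each (median-ratio scaling), 22.5% of all genes passed as higher, the number called lower went from 4044 to 2576, and the higher share of all calls was 50.5% against 32.5% with the FPKM as deposited. The median log2 fold change was 0.47 for the endosomal TLRs and -0.16 for the surface TLRs, against -0.10 for all tested genes.

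*Cited2*, the targeted gene, had an FPKM of 71.7 to 79.3 in the control libraries and 7.22 to 9.27 in the CITED2-deficient libraries. The recovered depth was 17289286 to 18952077 fragments in control and 22583995 to 26100410 fragments in CITED2-deficient libraries. The macrophage genes *Adgre1* and *Csf1r* were abundant in every library, and 4 of 6 macrophage markers were lower in CITED2-deficient BMDMs (summed FPKM 5310 to 5366 against 4659 to 4726). The fibroblast or stromal list rose in all 7 tested genes of 8 (summed FPKM 42.3 to 50.5 against 172 to 546), with the highest sum in CITED2-deficient replicate 1. Among these, *Postn* (mean FPKM 0.394 against 3.47) and *Pdgfrb* (0.936 against 2.45) reached the filter only through the CITED2-deficient group. Of the granulocyte precursor list, 4 of 5 tested genes of 6 were lower and 1 was higher, with overlapping sums (297 to 333 against 304 to 334). By mean FPKM, *Mpo* (16.2 against 1.95), *Elane* (12.4 against 2.15), *Camp* (47.0 against 23.1) and *Ngp* (149 against 119) were lower. *Ltf* (94.3 against 177) was higher, so the overlap of the sums does not show that these genes were alike. B cell markers summed to at most 3.39, plasmacytoid dendritic cell markers to at most 3.27, conventional dendritic cell markers to at most 2.18 and T or NK cell markers to at most 8.01 in any library, the last of which was mostly *Cd4*. In bulk RNA, fewer cells of a type and less RNA per cell cannot be told apart, and the part of these markers in the differences between members was not tested.

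Promoter sequences from RefSeq (GRCm38.p6, which is mm10) were at hand for 7 of the 10 members, with none for *Tlr4*, *Tlr7* and *Unc93b1*. The 250 bases before each start were searched on both strands for an interferon-stimulated response element (ISRE, GAAA, any 2 bases and GAAA), the core of the myeloid factor PU.1 (GAGGAA) and an NFkB-like motif (GGGA, any 4 bases and CC). These occurred in 2.98%, 23.3% and 17.6% of all 32851 promoters of the table, counted per start and not per gene. The 7 members had 9 starts, with more than 1 for *Tlr1* and *Tlr6*. The PU.1 core was found once each before *Tlr1* (one of its starts), *Tlr8*, *Tlr9* and *Tlr13*, the NFkB-like motif once before *Tlr2* and in 2 places before *Tlr3*, and the ISRE in 2 overlapping places before the one of the *Tlr6* starts that lies inside the gene. No ISRE letters stood in this window before *Tlr1*, *Tlr2*, *Tlr3*, *Tlr8*, *Tlr9* or *Tlr13*. The *Tlr3* window lies wholly inside the annotated gene, so the bases before the annotated 5′ end of *Tlr3* were not searched. The windows below belong to 2 receptors that rose and 2 that fell, written 5′ to 3′ on the gene's strand up to the first base of any annotated exon, with matches in capitals. They lie at chr9:106222348-106222597 (plus strand, *Tlr9*), chrX:106143025-106143203 (plus strand, *Tlr13*), chr3:83841768-83841858 (minus strand, *Tlr2*) and chr5:64959167-64959416 (minus strand, *Tlr6*).
Tlr9: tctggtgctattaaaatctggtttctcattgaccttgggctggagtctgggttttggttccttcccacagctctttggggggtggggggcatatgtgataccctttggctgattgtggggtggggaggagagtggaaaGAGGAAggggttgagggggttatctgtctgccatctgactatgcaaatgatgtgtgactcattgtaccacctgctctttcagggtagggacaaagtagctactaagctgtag
Tlr13: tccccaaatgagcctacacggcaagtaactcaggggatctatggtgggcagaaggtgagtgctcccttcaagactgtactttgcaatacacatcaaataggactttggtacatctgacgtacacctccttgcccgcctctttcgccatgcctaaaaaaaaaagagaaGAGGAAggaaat
Tlr2: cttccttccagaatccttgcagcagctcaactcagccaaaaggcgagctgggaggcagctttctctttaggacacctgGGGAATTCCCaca
Tlr6: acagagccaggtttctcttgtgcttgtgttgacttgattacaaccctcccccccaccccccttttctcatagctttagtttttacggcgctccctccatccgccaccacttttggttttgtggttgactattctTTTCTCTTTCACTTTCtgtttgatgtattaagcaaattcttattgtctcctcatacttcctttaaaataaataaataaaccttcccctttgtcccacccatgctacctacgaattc
The PU.1 core began 112 bases before the *Tlr9* start and 83 bases before the *Tlr13* start, and both were GAGGAA on the gene's own strand. The *Tlr2* match, GGGAATTCCC, began 172 bases before its start and reads the same on both strands. The *Tlr6* matches began 116 and 110 bases before the start and share 4 bases, and both lie on the strand opposite to the gene. A match describes the letters only and is not a measured binding site.

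*Tlr3*, the sensor of double-stranded RNA, had the largest change of the members. It lies on chromosome 8 (45395665 to 45411080, minus strand, mm10; ENSMUSG00000031639). Its FPKM was 6.96, 6.15 and 6.61 in control replicates 1, 2 and 3 and 15.4, 16.1 and 16.1 in the corresponding CITED2-deficient replicates. The groups lay far apart, with a coefficient of variation of 6.16% in control and 2.39% in CITED2-deficient BMDMs. The means were 6.57 ± 0.405 and 15.9 ± 0.379 (SD, n = 3 each), for a log2 fold change of 1.16, where SE is the standard error (limma, SE 0.064, adjusted p = 8.42e-07). Behind these values stood 207 to 256 fragments in control and 707 to 817 in CITED2-deficient libraries, the fewest of the endosomal TLRs. The antisense gene *Gm45542* overlaps the 5′ part of *Tlr3*. The libraries were stranded, and the use of strand in the counting is not stated. The summed level of the stromal markers was higher in each CITED2-deficient library than in any control library, and their part in the difference in *Tlr3* was not tested. *Tlr3* is also known from conventional dendritic cells. Their 5 markers in the table were all below the filter and summed to 0.703 to 1.05 in control and 2.12 to 2.18 in CITED2-deficient libraries, mostly *Clec9a* (0.429 ± 0.183 and 1.21 ± 0.182). *Ccr7* (0.203 ± 0.0533 and 0.572 ± 0.216) and *Xcr1* (0.0158 ± 0.0182 and 0.102 ± 0.0116) were also higher in each CITED2-deficient library than in any control library, *Flt3* and *Zbtb46* overlapped, and *Flt3* and *Xcr1* were at 0 in 1 control library each. Their part in the difference in *Tlr3* was not tested.

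*Tlr9*, the receptor for unmethylated CpG DNA, lies on chromosome 9 (106222598 to 106226883, plus strand; ENSMUSG00000045322) and had 1 annotated transcript. Its FPKM was 36.5, 31.6 and 33.4 in control replicates and 47.9, 56.4 and 53.8 in CITED2-deficient replicates. The groups did not overlap, although *Tlr9* was the most variable member among controls (coefficient of variation 7.37%). The means of 33.8 ± 2.49 and 52.7 ± 4.36 (SD, n = 3 each) gave a log2 fold change of 0.62 (limma, SE 0.070, adjusted p = 8.17e-05). *Tlr9* is also known from plasmacytoid dendritic cells. The 5 markers of these cells in the table summed to 2.37 to 3.27 in control and 1.99 to 2.52 in CITED2-deficient libraries, mostly *Cox6a2* (2.19 ± 0.356 and 1.59 ± 0.117), with *Siglech* at most 0.24 in any library. Their part in the difference in *Tlr9* was not tested.

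*Tlr13*, *Tlr7* and *Tlr8* were the most abundant receptors and are all on the X chromosome. *Tlr13*, the receptor for bacterial ribosomal RNA (106143204 to 106160493, plus strand; ENSMUSG00000033777), had an FPKM of 176, 174 and 170 in control replicates and 243, 252 and 229 in CITED2-deficient replicates. Every CITED2-deficient library was above every control library, and the log2 fold change was 0.47 (limma, SE 0.038, adjusted p = 9.14e-06). *Tlr7*, which senses single-stranded RNA (167304929 to 167330558, minus strand; ENSMUSG00000044583), had 212, 201 and 206 against 226, 241 and 230. *Tlr8*, its neighbor on the same strand (167242696 to 167264329; ENSMUSG00000040522), had 208, 199.8 and 202 against 225, 239 and 217. Both rose by a small step that was larger than the spread between replicates, *Tlr7* by 0.17 on the log2 scale (limma, SE 0.034, adjusted p = 0.00303) and *Tlr8* by 0.16 (SE 0.039, adjusted p = 0.00858). The ratio of *Tlr7* to *Tlr8* FPKM overlapped between the groups (1.02 ± 0.00853 in control against 1.02 ± 0.0331 without CITED2, SD, n = 3 each). *Xist*, the RNA of the inactive X chromosome, was present in all 6 libraries (FPKM 39.8 to 56.6), with overlapping groups.

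*Unc93b1* (chromosome 19, 3935186 to 3949340, plus strand; ENSMUSG00000036908) was the most abundant member, higher than 99.5% of the tested genes. Its FPKM was 1085, 1084 and 1076 in control replicates, a coefficient of variation of 0.448%, and 868, 907 and 911 in CITED2-deficient replicates. All 3 CITED2-deficient libraries lay below the controls. The log2 fold change was -0.27 (limma, SE 0.027, adjusted p = 3.75e-05), with a range of -0.30 to -0.18 over all alternatives. The summed FPKM of its 5 endosomal clients was 640, 613 and 619 in control and 758, 805 and 746 in CITED2-deficient libraries. The ratio of *Unc93b1* to this sum fell from 1.73 ± 0.0364 to 1.16 ± 0.0501 (SD, n = 3 each), with values of 1.70, 1.77 and 1.74 against 1.15, 1.13 and 1.22. A ratio within a library does not change when the library is multiplied by 1 factor, as in median-ratio scaling, but can change under quantile normalization. Within the sum, *Tlr3* made up 1.05 ± 0.0441% in control and 2.06 ± 0.0826% in CITED2-deficient BMDMs, *Tlr9* made up 5.42 ± 0.277% and 6.85 ± 0.467%, and *Tlr13* made up 27.8 ± 0.527% and 31.4 ± 0.693%, without overlap of the groups for any of them. With 3 against 3 libraries the smallest exact permutation p for a single ratio is 0.1, and the ratios, which were chosen after their values were seen, are given as a description.

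**Figure D1:**
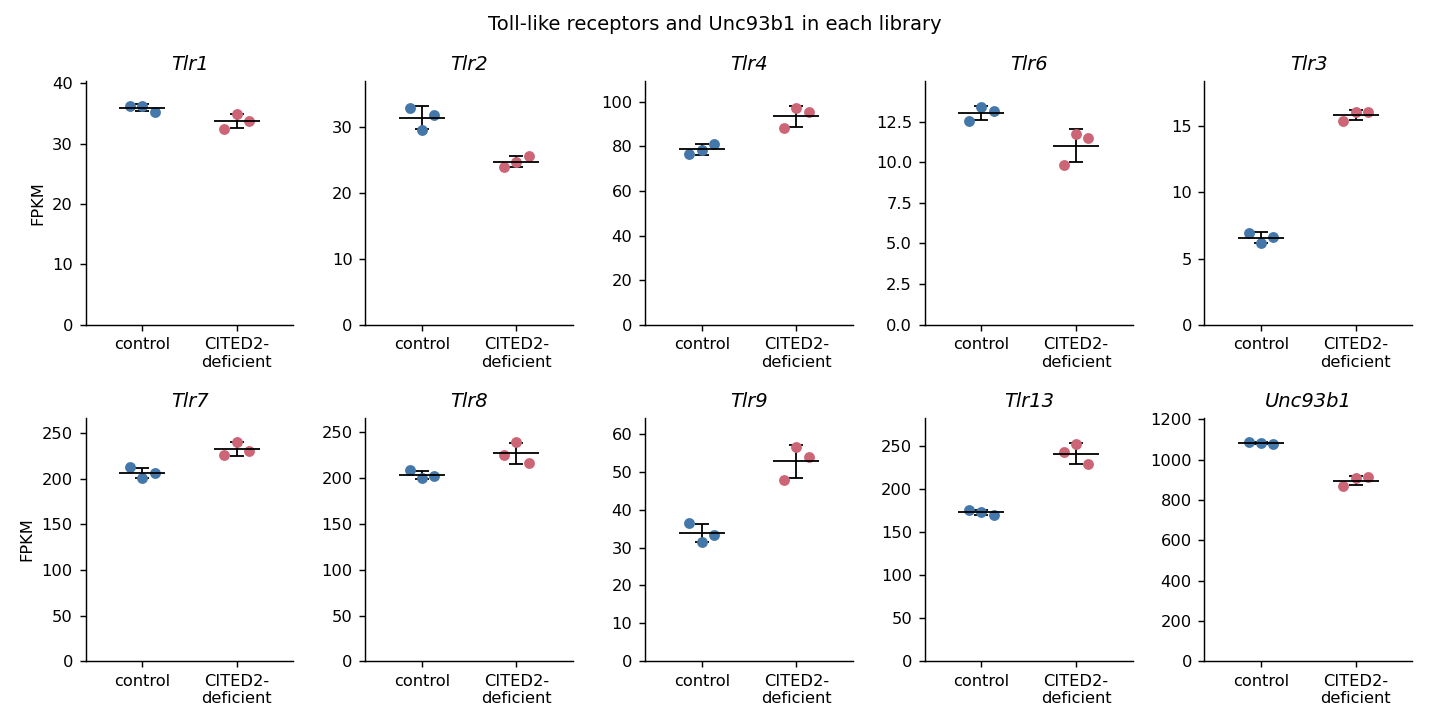
FPKM of each member (vertical axes start at 0) in the 3 control (blue) and 3 CITED2-deficient (red) libraries, with the mean as a line and the SD as bars. The groups do not overlap for any of the 10 members, and by fold the means are farthest apart for *Tlr3* (6.57 against 15.9) and closest for *Tlr1* (36.0 against 33.7).

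The surface receptors did not move in one direction. *Tlr4*, the lipopolysaccharide receptor (chromosome 4, 66827584 to 66930284, plus strand; ENSMUSG00000039005), had an FPKM of 76.4, 78.6 and 81.0 in control replicates and 88.1, 97.1 and 95.2 in CITED2-deficient replicates. It rose with groups that did not overlap (log2 fold change 0.25, limma, SE 0.044, adjusted p = 0.00149). *Tlr2*, which pairs with TLR1 or TLR6 to bind bacterial lipopeptides (chromosome 3, 83836272 to 83841767, minus strand; ENSMUSG00000027995), had 32.8, 29.5 and 31.8 against 23.9, 24.7 and 25.5. It fell by 0.33 on the log2 scale (limma, SE 0.052, adjusted p = 0.000689). The ratio of *Tlr4* to *Tlr2* was 2.51 ± 0.173 in control against 3.78 ± 0.133 without CITED2, with no overlap. The sum of all 4 surface receptors overlapped between the groups (159 ± 1.97 and 163 ± 7.55).

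*Tlr1* and *Tlr6*, the partners of TLR2, are neighbors on the minus strand of chromosome 5 (64924679 to 64933563, ENSMUSG00000044827, and 64952031 to 64960097, ENSMUSG00000051498). *Tlr6* had an FPKM of 12.6, 13.4 and 13.1 in control and 9.83, 11.7 and 11.5 in CITED2-deficient replicates. It fell by 0.23 on the log2 scale (limma, SE 0.073, adjusted p = 0.0283). It no longer passed without a filter (adjusted p = 0.064), after quantile normalization (0.134) and median-ratio scaling (0.179), and without control replicate 2 (0.0788), control replicate 3 (0.0723) or CITED2-deficient replicate 1 (0.0845). *Tlr1* had 36.3, 36.3 and 35.3 against 32.5, 34.9 and 33.7, and did not pass (log2 fold change -0.09, limma, SE 0.042, adjusted p = 0.0967), although its groups did not overlap. All 10 members had groups that did not overlap, 6 higher and 4 lower, as had 59.9% of all tested genes, 19.0% as higher and 40.9% as lower. After median-ratio scaling the log2 fold change of *Tlr1* was 0.0021. The ratio of *Tlr1* to *Tlr2* was 1.15 ± 0.0706 in control and 1.36 ± 0.0461 in CITED2-deficient BMDMs without overlap, while the ratio of *Tlr6* to *Tlr2* overlapped (0.417 ± 0.0361 and 0.445 ± 0.0315). These 2 genes share sequence, since 15.4% of the 50-base stretches of *Tlr1* transcripts occur in other genes, most of them in *Tlr6*, and 12.3% of those of *Tlr6* occur in other genes, most of them in *Tlr1*. How fragments from the shared stretches were counted is not stated, and the recovered fragments of both genes were whole numbers in every library. For the other 8 members this share was at most 0.018%.

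**Figure D2:**
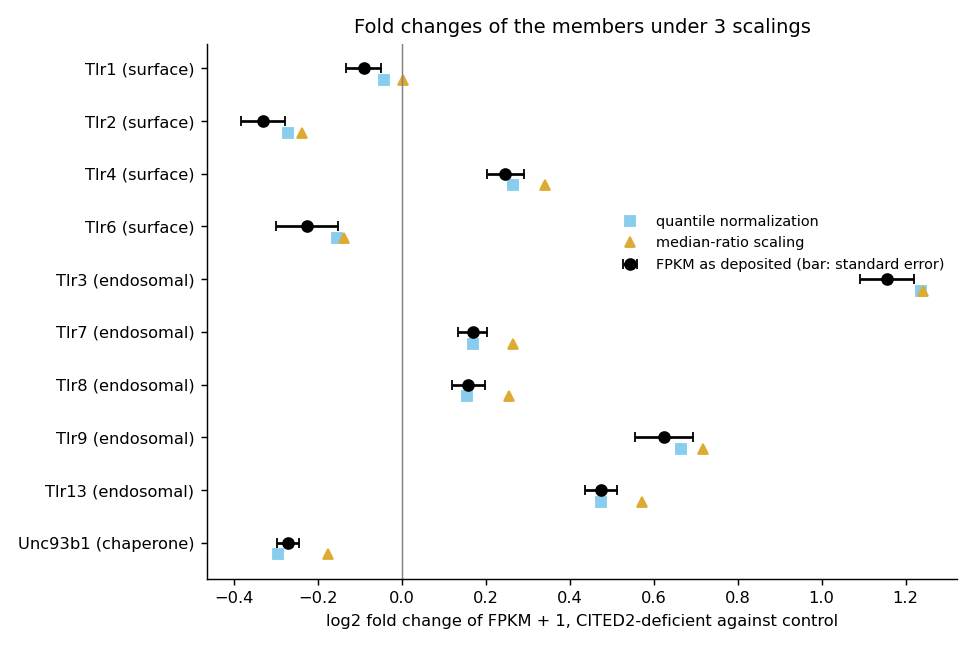
Log2 fold change of FPKM + 1 (horizontal axis, CITED2-deficient against control) of each member with the FPKM as deposited (black, bars are standard errors), after quantile normalization (squares) and after median-ratio scaling (triangles). The 5 endosomal receptors and *Tlr4* stay above 0 and *Tlr2*, *Tlr6* and *Unc93b1* below 0 under all 3 scalings, while *Tlr1* moves from -0.09 to 0.0021.

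By level, *Unc93b1* stood first in control BMDMs, followed by *Tlr7* (FPKM 207), *Tlr8* (203), *Tlr13* (173), *Tlr4* (78.7), *Tlr1* (36.0), *Tlr9* (33.8), *Tlr2* (31.4), *Tlr6* and *Tlr3* (6.57). *Tlr7* and *Tlr8* did not differ beyond their spread, nor did *Tlr1* and *Tlr9* or *Tlr9* and *Tlr2*. In CITED2-deficient BMDMs *Tlr13* had the highest mean of the receptors (242), with a range that overlapped that of *Tlr7* (232), and the ranges of *Tlr7* and *Tlr8* (227) overlapped as well. *Tlr9* (52.7) stood above *Tlr1*, and *Tlr3* (15.9) stood above *Tlr6*. The deposited FPKM divide by a mean over the annotated transcripts of a gene, short ones included. That length was 1773 bases for *Tlr4*, whose longest transcript has 4077 bases, and 1590 for *Tlr8* against 3431, whereas *Tlr9* and *Tlr2* had 1 transcript each. Per longest transcript, *Tlr4* (34.2), *Tlr9* (33.8) and *Tlr2* (31.4) were neighbors in control BMDMs. The range of *Tlr9* overlapped those of *Tlr4* and *Tlr2*, which did not overlap each other (33.2 to 35.2 and 29.5 to 32.8). In CITED2-deficient BMDMs *Tlr9* (52.7) stood above *Tlr4* (40.7). The length is the same for both genotypes, and enters their comparison only through the filter and the 1 added to each FPKM. On recovered fragments (limma-voom) the log2 fold change of *Tlr3* was 1.27.

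**Figure D3:**
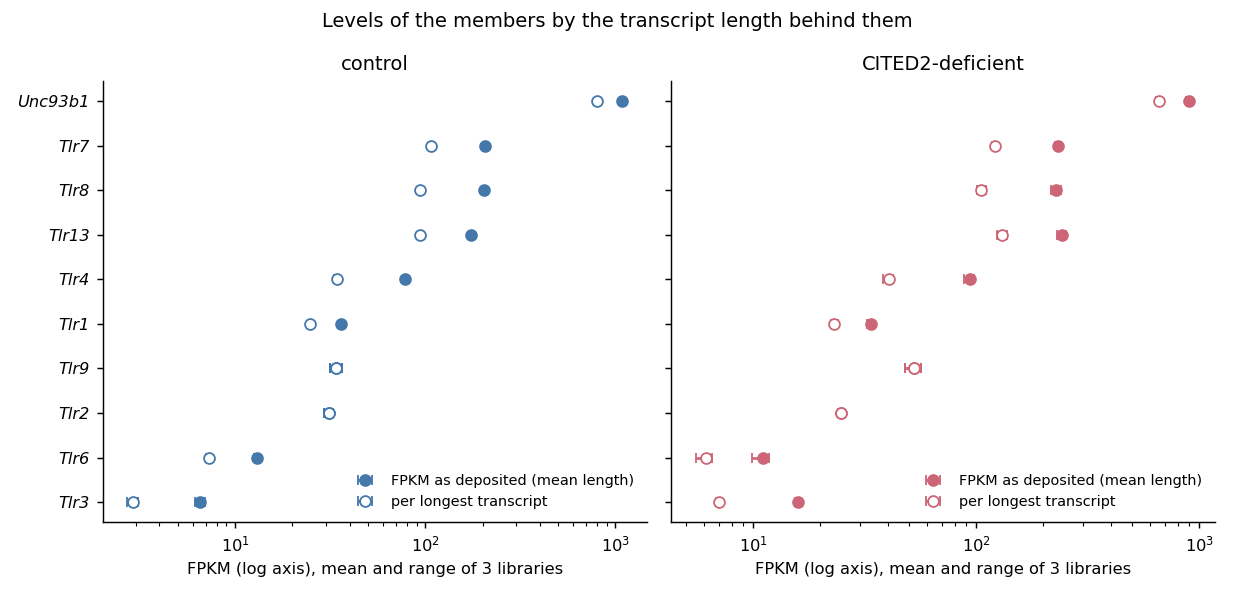
Level of each member (horizontal log axis, mean and range of 3 libraries) in control (left) and CITED2-deficient (right) BMDMs, as deposited (filled) and per longest annotated transcript (open). *Unc93b1* is first on both scales, and *Tlr4* moves from 93.5 to 40.7 in CITED2-deficient BMDMs, below *Tlr9* at 52.7.

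The other genes of the TLR pathway were read from 77 genes listed by role, of which 67 were tested. In limma 26 were higher and 19 were lower past the threshold, against 16.7% and 34.6% of all tested genes. With median-ratio scaling 30 were higher and 12 were lower. Among the genes that present ligands, *Cd180*, a relative of TLR4 without the signaling domain, rose from 254 ± 6.00 to 454 ± 32.4 (log2 fold change 0.83, limma adjusted p = 1.07e-06). Its soluble partner *Ly86* (MD-1) was at 133 ± 1.53 and 127 ± 2.82 and did not pass (adjusted p = 0.105), with a log2 fold change of -0.06 and of 0.031 after median-ratio scaling. The ratio of *Cd180* to *Ly86* was 1.91 ± 0.0425 in control and 3.55 ± 0.175 in CITED2-deficient BMDMs. The pair of *Tlr4* and *Ly96* (MD-2, which binds lipopolysaccharide beside TLR4) differed, since *Ly96* fell from 24.5 ± 2.77 to 18.5 ± 1.74 (log2 fold change -0.39, limma adjusted p = 0.00541) while *Tlr4* rose. Their ratio, *Ly96* to *Tlr4*, was 0.311 ± 0.0267 in control and 0.198 ± 0.0178 in CITED2-deficient BMDMs, without overlap. *Cd36*, a scavenger receptor that assists TLR2, fell (-0.30), and the lipopolysaccharide receptor *Cd14* did not pass (0.09, adjusted p = 0.121). *Cd14* passed as higher after median-ratio scaling (0.18), after quantile normalization (0.15) and without CITED2-deficient replicate 2 (0.13).

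**Figure D4:**
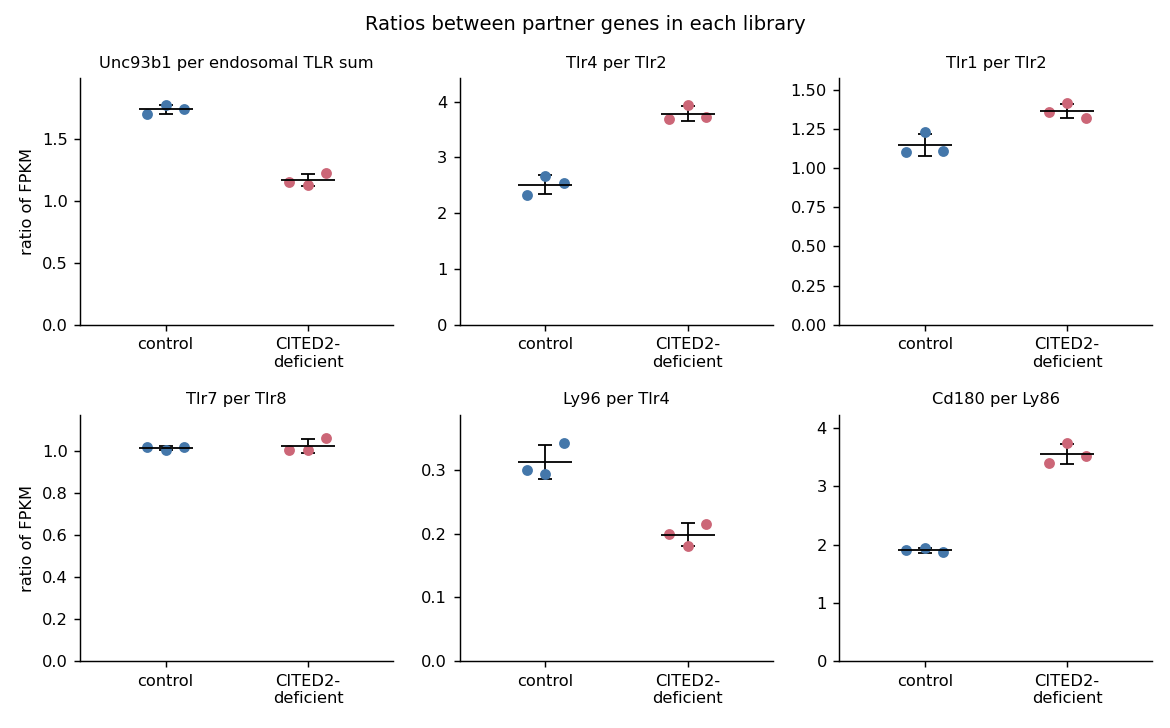
Ratio of FPKM (vertical axes start at 0) for 6 pairs of partner genes in the control (blue) and CITED2-deficient (red) libraries, with the mean as a line and the SD as bars. Of the pairs plotted, the groups overlap only for *Tlr7* to *Tlr8* (those of *Tlr6* to *Tlr2*, not plotted, overlap too), and *Unc93b1* to the endosomal sum goes from 1.73 to 1.16.

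Of 10 tested genes for TLR folding and trafficking, 2 rose and 3 fell, where 16.7% of all tested genes passed as higher and 34.6% as lower. *Cnpy3*, a co-chaperone for several TLRs, fell from 124 ± 2.75 to 86.9 ± 1.48 (log2 fold change -0.51, limma adjusted p = 1.89e-06), and its relative *Cnpy4* fell by 0.33 on the log2 scale. *Hsp90b1* (gp96), the chaperone that works with *Cnpy3*, did not pass (0.03, adjusted p = 0.456), although it passed after median-ratio scaling (0.13). *Lrrc59* (0.14) and *Atp6ap1* (0.10) rose, the second not without the variance trend. Of the 6 proteases that can trim endosomal TLRs, 3 rose and 1 fell. *Ctss* (cathepsin S) rose from 3016 ± 36.0 to 5662 ± 26.4 (log2 fold change 0.91, limma adjusted p = 5.77e-09), *Ctsk* rose by 0.53 and *Ctsh* by 0.36, and *Lgmn* (asparagine endopeptidase) fell by 0.24 on the log2 scale.

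Among the adaptors, 5 of 6 tested genes rose and 1 fell. *Ticam1* (TRIF), the adaptor of TLR3, rose from 10.8 ± 0.439 to 16.1 ± 0.358 (log2 fold change 0.53, limma adjusted p = 5.35e-05), and *Pik3ap1* (BCAP) rose by 0.52 and *Tirap* by 0.29. *Scimp* rose by 1.25 from an FPKM of 0.402 ± 0.36, with 2, 4 and 13 fragments in control and 50, 34 and 62 in CITED2-deficient libraries. *Scimp* reached the filter only through the CITED2-deficient group (FPKM 2.30 ± 0.513), so its place among the 5 that rose depends on that group. Of 18 tested kinases and ubiquitin enzymes, 5 rose and 7 fell, beside 16.7% higher and 34.6% lower among all tested genes. *Irak2*, a kinase of the MYD88 complex, rose from 32.2 ± 1.04 to 46.7 ± 0.806 (log2 fold change 0.53, limma adjusted p = 6.94e-06), while of the Pellino ubiquitin ligases *Peli1* rose (0.44) and *Peli2* fell (-0.48). *Traf3* rose by 0.40. Of 8 tested negative regulators 3 rose and 4 fell, with *Tnip1* (0.69) and *Tnfaip3* (A20, 0.27), which restrain NFkB signaling, higher, and *Irak3* (-0.34) and *Dok3* (-0.35) lower.

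Of 7 transcription factors, 3 rose and 1 fell, beside 16.7% higher and 34.6% lower among all tested genes. *Irf7*, which acts behind TLR7 and TLR9 in interferon production, rose by 3.46 on the log2 scale, *Irf5* rose from 300.0 ± 2.53 to 360 ± 8.81 (0.26, limma adjusted p = 5.86e-05) and *Irf3* fell from 52.6 ± 2.98 to 39.8 ± 1.80 (-0.39, adjusted p = 0.000239). *Rel* rose by 0.18 (adjusted p = 0.0458), a call that was lost without a filter, with the replicate block and without any single library other than CITED2-deficient replicate 3. Of 9 inducible outputs 6 were tested and 4 rose, namely *Ccl5* (3.71), *Cxcl10* (3.20), *Tnf* (0.73) and *Il1b* (0.72). *Nfkbia*, the NFkB inhibitor (65.3 ± 1.13 and 64.5 ± 3.25), and *Il10* (4.15 ± 0.0840 and 3.97 ± 0.253) were tested and did not pass (limma adjusted p = 0.723 and 0.641). The 3 outputs below the filter were close to the limit of detection, with 0, 0 and 0 fragments of *Ifnb1* in control and 5, 2 and 5 in CITED2-deficient libraries, 0 to 1 against 6 to 20 fragments of *Il12b* and 0 to 2 against 3 to 8 of *Il6*. When every listed gene was tested with limma, *Ifnb1* (adjusted p = 0.0119) and *Il12b* (0.0334) passed and *Il6* (0.0878) did not.

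The remaining mouse TLRs were almost absent. *Tlr5*, the flagellin receptor, had 26, 17 and 27 fragments in control and 3, 5 and 5 in CITED2-deficient libraries, and passed as lower when no filter was used (limma adjusted p = 0.00162). *Tlr11* had 5, 0 and 12 against 20, 15 and 11 fragments and *Tlr12* had 2, 0 and 2 against 5, 6 and 9, and neither passed in limma without a filter (adjusted p = 0.277 and 0.0594). Without a filter 26.2% of 22248 genes passed. Fragment counts are also subject to the greater depth of the CITED2-deficient libraries. Of the other listed genes below the filter, *Il1rl1* passed as lower (limma adjusted p = 0.00578), and *Sarm1*, *Ube2v1* and *Sigirr* did not pass.

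**Figure D5:**
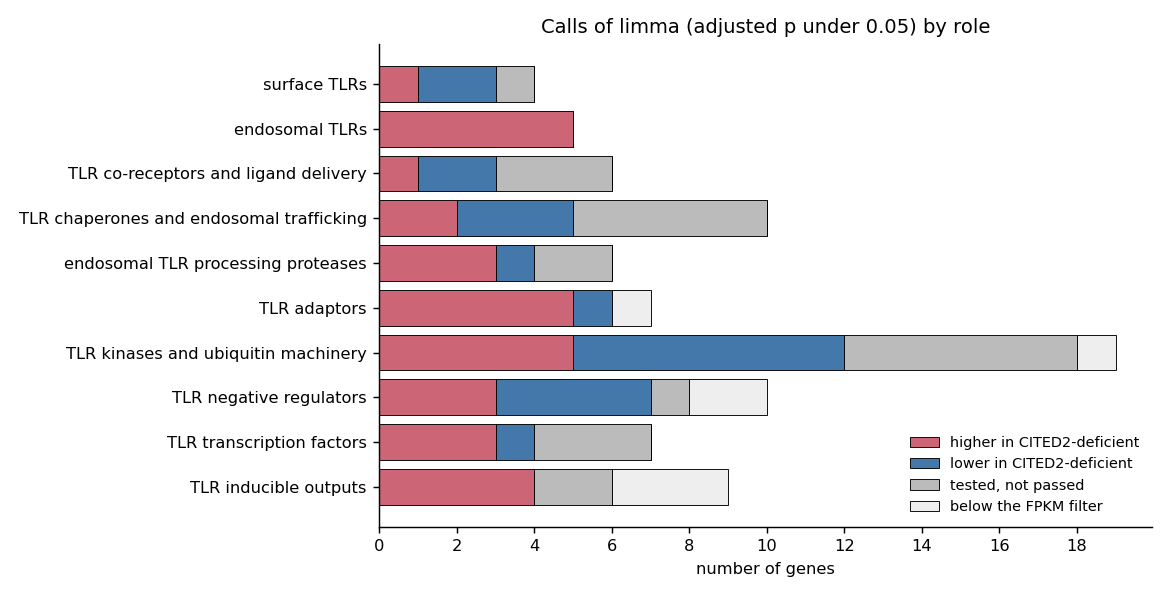
Number of genes (horizontal axis) of each role that were higher (red) or lower (blue) in CITED2-deficient BMDMs past an adjusted p of 0.05 in limma, tested without passing (grey) or below the FPKM filter (light). The endosomal receptors have 5 higher and 0 lower, the kinases and ubiquitin enzymes 5 higher and 7 lower. Of all tested genes 16.7% were higher and 34.6% lower.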

How the data were processed

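RNAseq of 3 control and 3 CITED2-deficient BMDM libraries was used. Per the labels and the methods of the study, the authors removed ribosomal RNA, prepared stranded libraries, aligned them with STAR (mm10) and computed FPKM per gene and library with Cuffdiff on the GENCODE annotation. No source used here gives versions. The deposited FPKM were not pooled over replicates.

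The test was limma 3.58.1 (R 4.3.3) on log2(FPKM + 1), fitted with its variance trend to all genes whose mean FPKM reached 1 and adjusted over them by the Benjamini-Hochberg method. Fold changes on this scale understate those of low genes. Cuffdiff needs alignments and was not repeated. Fragments were recovered from the FPKM steps with mean transcript lengths of GENCODE vM21 rounded down, which gave whole numbers, to within 0.02, in every library for 96.1% of 22239 matched genes. For *Unc93b1* the smallest whole length that gave whole numbers in all libraries, 1668 bases, was used, as for 4 pathway genes. Replicates differed beyond sampling noise (mean chi-square per gene of 2.26 to 5.87), and nothing states that they came from separate mice, so the p-values measure only the spread between these libraries. The fit was tested on simulated data in which few genes changed and the added spread was the same for every gene. That test does not cover data in which 51.3% of genes pass.

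The members and lists were chosen with earlier results of these data known. Of each role list, up to 4 genes past the threshold with the largest change are named, with those below the filter. *Cd14*, *Ly86*, *Hsp90b1*, the ratios and the levels per longest transcript were chosen after the values were seen. Alternatives were pseudocounts of 0.1 and 0.5, median-ratio scaling, quantile normalization, no filter, a filter at a mean FPKM of 5, array weights, no variance trend, a replicate block, limma-voom on the recovered fragments and each library left out in turn.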

Additional observations from a re-analysis of the deposited data

How the results depend on the processing

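Under the 16 alternatives all 5 endosomal TLRs, *Tlr4*, *Tlr2* and *Unc93b1* kept their direction and their side of the threshold, *Tlr3* with log2 fold changes from 1.11 to 1.27 and *Tlr8*, the smallest rise, from 0.12 to 0.25. *Tlr1* turned to 0.0021 after median-ratio scaling and *Ly86* to 0.031. *Tlr6* lost its call under 6 alternatives. The number of pathway genes called lower moved from 19 to 12 after median-ratio scaling, when 30 were higher. The number of all genes called lower moved from 4044 to 2576 under the same scaling. The cause was not tested. The counts of members, of pathway genes called higher and of all genes called stayed within 1.5 times. With single libraries left out, 6 members were higher throughout and 2 to 3 lower, 25 to 26 pathway genes were higher and 15 to 20 lower, and 5226 to 5467 of all genes were called, against 5994. Same-numbered libraries did not deviate together (correlations 0.0138, 0.00784 and 0.0402), and not every library correlated best with its own number. The fit with a replicate block called 6 members higher and 3 lower, 25 pathway genes higher and 16 lower, and 5708 genes in all. At this depth *Ifnb1*, *Il6*, *Il12b*, *Tlr11* and *Tlr12* had too few fragments for a firm fold change.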
